A study of Homo sapiens with 11 samples.

Results

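The 40 genes described here encode proteins that take a human cell from the G2 phase through mitosis: the kinases and cyclins of mitotic entry, the spindle checkpoint, the kinetochore, the spindle and its motors, and cytokinesis. They were chosen by name, from a list of well-known G2 and mitosis genes, and their levels were followed in A549 and H1299 lung cancer cells after knockdown of METTL3. Earlier results of these data were known when this list and the lists set beside it were chosen. Counts over them may therefore not be independent of the data. All 40 of 40 were found by symbol among the 19806 genes named in the expression tables of both lines. All 40 also passed the filter on low values, which kept genes with a mean signal of 1 or more in a line. The A549 table has 21316 rows and the H1299 table has 20915.

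Most of these genes are transcribed in a wave that peaks in G2 and mitosis, so their summed transcript level in a culture follows both how many cells are dividing and how much RNA each dividing cell holds. Outside that window the DREAM complex holds many of them down through a promoter element named the cell cycle genes homology region (CHR). In G2 the factors B-MYB and FOXM1 are recruited to the same promoters, and NF-Y bound to CCAAT boxes supports their transcription. METTL3 is the enzyme that places N6-methyladenosine (m6A) on messenger RNA, a mark that affects the stability and translation of the transcripts that carry it.

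A549 is an established line from a human lung adenocarcinoma, and H1299 is an established line from a metastasis of a human non-small-cell lung carcinoma. For each line there was 1 RNA-seq library of cells with a short hairpin RNA against GFP (labelled ShGFP, here shGFP), which serves as the control. A further 2 libraries per line came from cells with a hairpin against METTL3 (labelled ShMETTL3, here shMETTL3), numbered 1 and 2. Nothing in the labels tells whether these numbers stand for different hairpins or for repeats of one, or whether the cultures were separate, so p-values cover only the spread between these libraries. All 6 cultures were otherwise grown alike per the labels, and none carried another labelled treatment.

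The values are a signal per gene, which is a whole number of reads divided by 1 factor for each library. Multiplied back, the libraries held between 14447379 and 26351309 reads in genes, and a member had between 104 reads (CDC25C in A549 library 1) and 28426 reads (TOP2A in A549 shGFP). METTL3 itself stood at 556.84 in A549 shGFP and at 231.43 and 232.19 in knockdown libraries 1 and 2, which is 41.6 and 41.7% of the control. Its H1299 level was 271.2 in shGFP and 123.1 and 100.2 in the knockdowns, or 45.4 and 36.9%. Of the epithelial markers, KRT8 and KRT18 were detected in all 6 libraries, while EPCAM was at 0.4 or less in all 3 H1299 libraries. Defining markers of other cell types were near 0 except CD68, PECAM1 and, in A549 library 1, CDH5. A549 library 1 stood apart in secretory and surface genes such as BPIFB1, at 111.07 against 1.05 in shGFP and 0.63 in library 2, and the part of this in the members' levels was not tested. Ribosomal precursor RNA (RNA45S5) took 20.5 to 25.4% of the reads in the H1299 libraries, against 0.208 to 0.284% in A549.

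Promoters of the 4 members with the lowest mean change in A549 are shown, with the letters of 2 elements that such promoters are known for. Each stretch holds 150 bases before the transcription start and 20 bases from it, 5′ to 3′ on the strand of the gene, from the RefSeq promoter table (GRCh38.p14). Capitals mark the CHR letters (TTTGAA or TTCGAA) and the CCAAT box, each also in its reverse complement. CDC20 lies on the forward strand at chr1:43358831-43359000 and BUB1 on the reverse strand at chr2:110678044-110678213. PLK1 lies on the forward strand at chr16:23678739-23678908 and CCNB1 on the forward strand at chr5:69167000-69167169.
CDC20: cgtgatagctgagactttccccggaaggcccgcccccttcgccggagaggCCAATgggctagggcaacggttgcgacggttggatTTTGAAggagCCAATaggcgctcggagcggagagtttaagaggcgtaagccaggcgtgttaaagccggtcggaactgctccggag
BUB1: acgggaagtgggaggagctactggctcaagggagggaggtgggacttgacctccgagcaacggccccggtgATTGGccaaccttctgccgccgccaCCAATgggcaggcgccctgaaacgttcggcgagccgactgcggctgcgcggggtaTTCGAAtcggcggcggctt
PLK1: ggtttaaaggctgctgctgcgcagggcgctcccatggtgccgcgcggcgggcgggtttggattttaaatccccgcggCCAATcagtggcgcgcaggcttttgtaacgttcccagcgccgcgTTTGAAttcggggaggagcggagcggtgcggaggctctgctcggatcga
CCNB1: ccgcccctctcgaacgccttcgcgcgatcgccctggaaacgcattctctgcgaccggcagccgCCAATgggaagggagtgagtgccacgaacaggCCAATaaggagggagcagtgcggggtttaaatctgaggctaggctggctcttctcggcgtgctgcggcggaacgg
In CDC20 the CHR letters began 65 bases before the start, with CCAAT boxes at 100 and 55 bases before it. Its window held CHR letters also in reverse complement, 178 bases before the start and outside the stretch shown. PLK1 had its CHR letters 29 bases before the start and a CCAAT box at 73 bases. BUB1 had a CCAAT box on each strand, at 79 and 54 bases before the start, and CHR letters just past the start. CCNB1 had CCAAT boxes at 87 and 55 bases, and neither CHR spelling was in its window.

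Over all members, 35 of the 40 had an entry in the promoter table, whose windows run from 250 bases before to 50 bases after a start. The CHR letters were in a window of 27 of these 35 genes (77.1%), against 19.5% of the 27305 genes in the table. A CCAAT box was in 28 of them (80%), against 39.7% of all genes. Both stood together in 23 (65.7%), against 7.85%. The 50 S phase genes used below for comparison, of which 42 had a promoter entry, held CHR letters in 4 (9.52%) and a CCAAT box in 25 (59.5%). Counted by window, CHR letters were in 30 of the members' 44 windows (68.2%) and in 16.4% of the 35116 windows of the table, and CCAAT in 72.7% and 34.6%. A match of letters describes the sequence and is not a measurement of binding.

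In A549, 35 of the 40 members stood below shGFP in both knockdown libraries, 1 stood above in both and 4 lay on both sides. Among all 17454 genes tested in A549, 27.2% stood below in both and 27.2% above in both. The members' median log2 difference from shGFP was -0.18 in library 1 and -0.23 in library 2, against 0.02 and -0.01 for all genes. Added up, the members' signal was 88.5% of shGFP in library 1 and 84.9% in library 2. TOP2A alone made up 20.9% of that sum in shGFP, and without it the sums were 87.7 and 84.7%. In these bulk libraries, fewer cells in G2 and mitosis and less RNA of these genes per cell cannot be told apart.

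In H1299 the same genes stood mostly on the other side. Of the 40, 22 were above shGFP in both knockdown libraries, 2 were below in both, and 16 were not on a single side. Among the 16470 genes tested there, 30.6% stood above in both and 24.5% below in both. The members' median difference was 0.29 in library 1 and 0.01 in library 2, against 0.09 and -0.04 for all genes, and their summed signal was 114.1 and 98.5% of shGFP. Library 1 taken alone had 38 members above shGFP and 2 below, whereas library 2 taken alone had 22 above and 17 below, so the size of the H1299 shift rests on library 1. All genes leaned the same way, with 64.9% of them lower in library 2 than in library 1. Shares of all genes above or below shGFP were not computed for each library alone. Taken as a share of the reads that are not RNA45S5, the members stood at 1.11 and 1.03 times the control in H1299, and at 0.901 and 0.865 times it in A549.

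**Figure D1:**
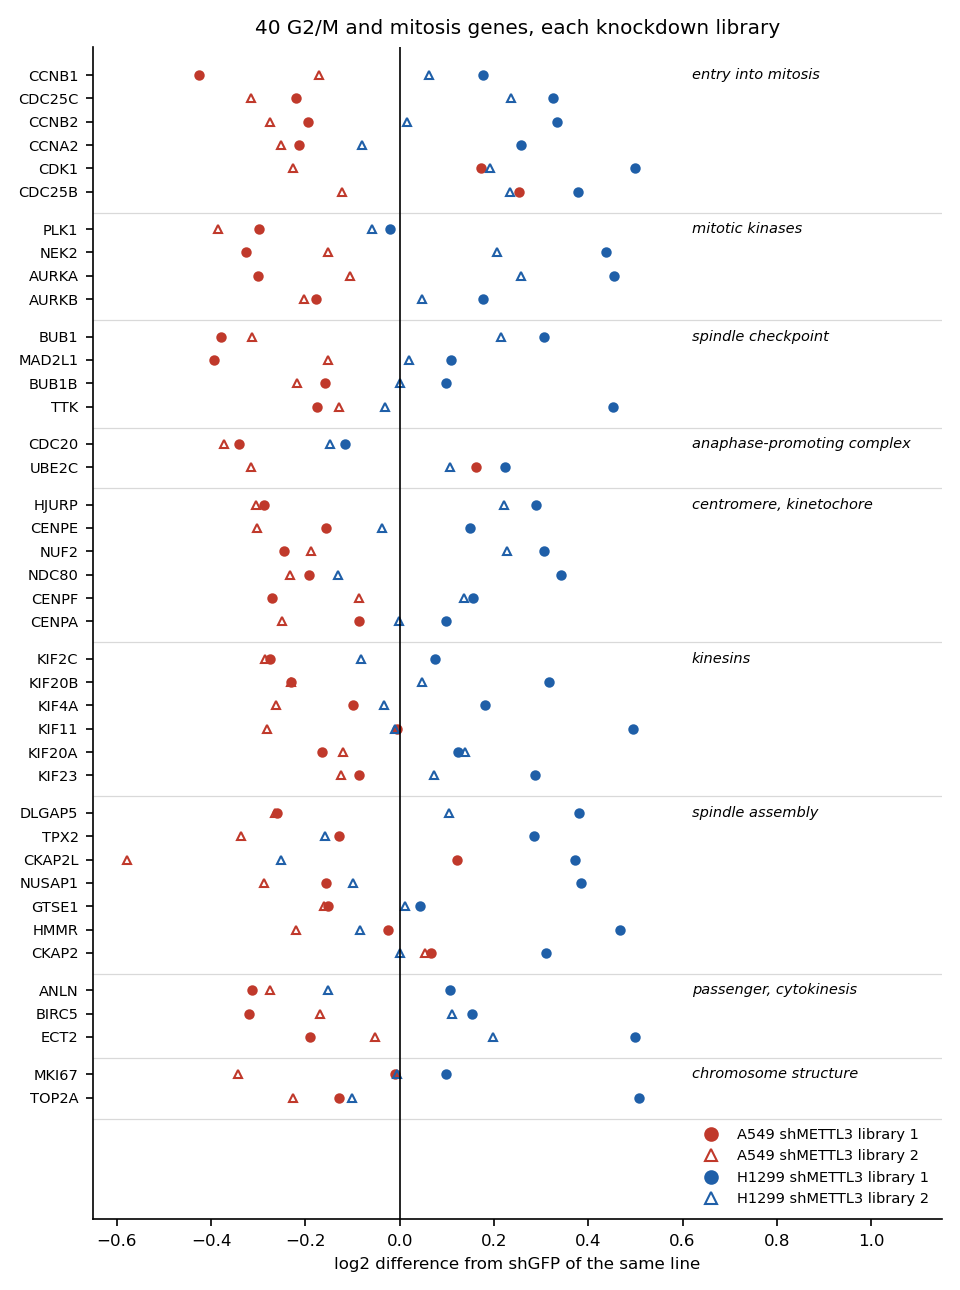
Each row is 1 of the 40 genes, grouped by role, and the horizontal axis is the log2 difference of a knockdown library from the shGFP library of its line (red A549, blue H1299; filled circles library 1, open triangles library 2). The A549 symbols lie left of 0 in both libraries for 35 genes, and the H1299 circles of library 1 lie right of 0 for 38.

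No single gene passed the test. This includes METTL3, the targeted gene, with a log2 change of -1.26 in A549 and -1.28 in H1299. A test that did not call METTL3 says little about smaller changes of the members. With limma on log2(signal + 1) and Benjamini-Hochberg adjustment, 0 of 40 members and 0% of all genes had an adjusted p under 0.05 in A549, and the same counts, 0 of 40 and 0%, held in H1299. Every member's adjusted p was 1 in each line. At an unadjusted p under 0.05 there were 0 members in A549, where 0.659% of all genes (115) were under it, and 0 in H1299, where 0.601% (99) were. The edgeR test on the A549 reads also called 0 members and 0% of genes, with 138 genes under an unadjusted 0.05. In a fit of both lines together 0 members and 0% of genes were called, and CDC20 was the only member under an unadjusted 0.05, where 2.41% of genes (374) were. Standard errors of a member's log2 change ran from 0.18 to 0.35 in A549 and from 0.17 to 0.32 in H1299, about as large as the changes themselves. The differences below are therefore levels in these libraries, and none of them is a called change.

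CDK1 with a cyclin partner is the kinase that drives entry into mitosis, and the 6 members of this group were CDK1, the cyclins CCNB1, CCNB2 and CCNA2, and the phosphatases CDC25B and CDC25C that activate CDK1. CCNB1, cyclin B1, had a signal of 2361 in A549 shGFP and of 1759 and 2098 in libraries 1 and 2, a log2 change of -0.30 (SE 0.22, n = 1 and 2). In H1299 CCNB1 stood at 1730 in shGFP and at 1955 and 1806, a log2 change of 0.12 (SE 0.18). Both A549 knockdowns were thus under their control and both H1299 knockdowns over theirs.

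CDC25C repeated this order at a far lower signal. Its signal was 43.4 in A549 shGFP and 37.1 and 34.7 in the knockdowns (log2 -0.27, SE 0.27). In H1299 the signal was 38.4 in shGFP and 48.4 and 45.4 in the knockdowns (log2 0.28, SE 0.27). CDC25C rested on 104 to 227 reads a library, and in A549 the 95% counting intervals of its ratio to shGFP, 66.3 to 110% and 62.2 to 102%, both included 100%. CDC25B departed from its family member: it was 371 in A549 shGFP, 443 in library 1 and 341 in library 2, which lie on opposite sides. In H1299 CDC25B stood at 137 in shGFP and at 178 and 161 in the knockdowns (log2 0.31, SE 0.23), above the control in both.

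CDK1 was also split in A549, at 67.1 in shGFP, 75.7 in library 1 and 57.2 in library 2 (log2 -0.03, SE 0.29). Its H1299 signal was 26.3 in shGFP and 37.6 and 30.2 in the knockdowns (log2 0.35, SE 0.31). With 134 to 255 reads a library, only the ratio in H1299 library 1, 143% (113 to 181%), had a counting interval that left out 100%. Of the other cyclins, CCNB2 differed by -0.23 in A549 and 0.17 in H1299 on the log2 scale. CCNA2, the cyclin of S phase and early mitosis, differed by -0.23 and 0.09 and lay on both sides of shGFP in H1299.

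The mitotic kinases PLK1, AURKA, AURKB and NEK2 act on centrosomes, kinetochores and the cleavage furrow. All 4 were below shGFP in both A549 libraries. PLK1, which acts at each step from mitotic entry to cytokinesis, had a signal of 1784 in A549 shGFP and of 1451 and 1366 in the knockdowns (log2 -0.34, SE 0.19). PLK1 in H1299 was 1973 in shGFP, 1946 in library 1 and 1895 in library 2 (log2 -0.04, SE 0.17). PLK1 was the only kinase of this group not above its control in H1299. Its counting interval there included 100% in library 1 (95.8 to 102%) but not in library 2 (93.4 to 98.8%).

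AURKA, the kinase of centrosome maturation and spindle assembly, showed the largest mean log2 change of a member over both H1299 libraries. In library 1 alone TOP2A, ECT2, CDK1, KIF11 and HMMR stood higher above the control. It stood at 137 in H1299 shGFP and at 188 and 164 (log2 0.36, SE 0.24), which is 137% (124 to 152%) and 120% (108 to 133%) of the control. In A549 AURKA stood at 223 in shGFP and at 181 and 207 (log2 -0.20, SE 0.21). NEK2, a centrosome kinase that splits the centrosomes before the spindle forms, had the same order. Its signal was 287 in A549 shGFP and 229 and 258 in the knockdowns (log2 -0.24, SE 0.20). Its H1299 signal was 94.5 in shGFP and 128 and 109 in the knockdowns (log2 0.32, SE 0.25). AURKB, the kinase of the chromosomal passenger complex, differed by -0.19 in A549 and by 0.11 in H1299.

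The spindle checkpoint delays anaphase until every kinetochore is attached. BUB1, BUB1B, TTK and MAD2L1 belong to it, and all 4 stood below shGFP in both A549 libraries. BUB1, a kinetochore kinase of the checkpoint, had the widest gap between the lines in the mean of both knockdown libraries. This order depended on the libraries. Without H1299 library 2 NEK2 had a wider gap than BUB1 (-0.68 against -0.65). TOP2A had a still wider gap there (A549 mean -0.18, H1299 library 1 at 0.51). Without A549 library 1 CDC25C had a wider gap than BUB1 (-0.60 against -0.57). CKAP2L had a still wider gap there (A549 library 2 at -0.58, H1299 mean 0.06). Without A549 library 2 AURKA had the widest (-0.65, against -0.64 for BUB1). In A549 it stood at 369 in shGFP and at 283 and 297 in the knockdowns (log2 -0.35, SE 0.19), or 76.8% (70.3 to 83.9%) and 80.4% (74.0 to 87.4%) of the control. The H1299 signal of BUB1 was 341 in shGFP and 421 and 395 in the knockdowns (log2 0.26, SE 0.21), or 124% (116 to 132%) and 116% (109 to 124%). All 4 counting intervals of BUB1 left out 100%, on opposite sides in the 2 lines.

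MAD2L1, the inhibitor of CDC20 that the checkpoint produces, was 579 in A549 shGFP and 441 and 522 in the knockdowns (log2 -0.27, SE 0.21). Its H1299 values were 133, 144 and 135 (log2 0.06, SE 0.23), within counting error of each other. BUB1B differed by -0.19 in A549 and 0.05 in H1299. TTK, the kinase that starts checkpoint signalling, differed by -0.15 and 0.21, and in H1299 its libraries lay far apart, at 0.45 and -0.03.

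CDC20 and UBE2C serve the anaphase-promoting complex, the ubiquitin ligase that destroys cyclin B and securin. CDC20, its activator, had the lowest mean log2 change of all members in both lines. It stood at 1421 in A549 shGFP and at 1123 and 1097 in the knockdowns (log2 -0.36, SE 0.19), or 79.0% (75.6 to 82.6%) and 77.2% (73.9 to 80.5%) of the control. The H1299 signal of CDC20 was 3115 in shGFP and 2874 and 2811 in the knockdowns (log2 -0.13, SE 0.17), or 92.3% (90.1 to 94.4%) and 90.2% (88.2 to 92.3%). CDC20 was the only member whose counting interval lay under 100% in all 4 knockdown libraries. Together with PLK1 it made up the 2 members that were below shGFP in all 4 libraries, which held for 9.05% of the 15546 genes tested in both lines. UBE2C, the ubiquitin-conjugating enzyme of the complex, was split in A549 (log2 0.16 and -0.32) and above its control in both H1299 libraries (mean 0.17).

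Of the centromere and kinetochore proteins, NDC80, NUF2, CENPA, CENPE, CENPF and HJURP, all 6 were below shGFP in both A549 libraries and 3 (NUF2, CENPF and HJURP) were above it in both H1299 libraries. HJURP, the chaperone that loads the centromeric histone CENPA, stood at 770 in A549 shGFP and at 631 and 624 (log2 -0.30, SE 0.18). The H1299 signal of HJURP was 269 in shGFP and 329 and 313 in the knockdowns (log2 0.26, SE 0.21). The 2 libraries of each line lay close together for HJURP, at -0.29 and -0.30 in A549 and at 0.29 and 0.22 in H1299.

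NUF2, a subunit of the NDC80 complex that grips microtubules, was 163 in A549 shGFP and 138 and 143 in the knockdowns (log2 -0.22, SE 0.21). It was 91.8 in H1299 shGFP and 114 and 108 in the knockdowns (log2 0.27, SE 0.24). Its partner NDC80 differed by -0.21 in A549 but lay on both sides in H1299, at 0.34 and -0.13. CENPF differed by -0.18 and 0.15, the kinetochore motor CENPE by -0.23 and 0.06, and CENPA by -0.17 and 0.05.

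The 6 kinesins, motors that build the spindle or the midzone, were all below shGFP in both A549 libraries. KIF2C, which takes apart microtubules at centromeres, was 167 in A549 shGFP and 138 and 137 in the knockdowns (log2 -0.28, SE 0.20). The H1299 signal of KIF2C was 287 in shGFP and 302 and 271 in the knockdowns (log2 -0.0036, SE 0.22), on either side of the control. KIF20A, KIF20B and KIF23, motors of the midzone and cytokinesis, differed by -0.14, -0.23 and -0.11 in A549 and by 0.13, 0.18 and 0.18 in H1299, where each was above shGFP in both libraries. KIF11, which pushes the spindle poles apart, differed by -0.14 in A549 and 0.24 in H1299, with H1299 libraries at 0.49 and -0.01. KIF4A, a chromosome-bound motor, differed by -0.18 and 0.07.

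Of the 7 spindle assembly factors, 5 were below shGFP in both A549 libraries, 1 was above and 1 was split. DLGAP5, which bundles the microtubules near chromosomes, stood at 404 in A549 shGFP and at 338 and 336 (log2 -0.26, SE 0.19). The H1299 signal of DLGAP5 was 170 in shGFP and 222 and 183 in the knockdowns (log2 0.24, SE 0.24). TPX2, the activator of AURKA on the spindle, differed by -0.23 in A549, and NUSAP1, HMMR and GTSE1 by -0.22, -0.12 and -0.16. In H1299 these 4 differed by 0.06, 0.14, 0.19 and 0.03, and only GTSE1 was above its control in both libraries.

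The paralogs CKAP2 and CKAP2L, both microtubule-associated proteins, were the exceptions of this group in A549. CKAP2 was the 1 member above shGFP in both libraries, at 196 in shGFP, 206 in library 1 and 204 in library 2, a mean difference of 0.06 that its counting intervals did not separate from the control. In H1299 CKAP2 differed by 0.15, with 211.8 in shGFP, 262.7 in library 1 and the same 211.8 in library 2. CKAP2L had the widest spread of all members, at 0.12 and -0.58 in A549 and at 0.37 and -0.25 in H1299 (means -0.23 and 0.06), so that its libraries were split by number and not by line.

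ANLN, BIRC5 and ECT2 act in cytokinesis and, for BIRC5 (survivin), in the chromosomal passenger complex, and all 3 were below shGFP in both A549 libraries. ANLN, the scaffold of the contractile ring, stood at 738 in A549 shGFP and at 594 and 610 (log2 -0.29, SE 0.18). Its H1299 values were 600.4 in shGFP, 646 in library 1 and 541 in library 2 (log2 -0.02, SE 0.22), on either side of the control. ECT2, which switches on RhoA at the cleavage site, stood at 793 in A549 shGFP and at 696 and 765 (log2 -0.12, SE 0.19). In H1299 ECT2 stood at 181 in shGFP and at 256 and 208 (log2 0.35, SE 0.24), or 142% (130 to 155%) and 115% (105 to 126%) of the control. BIRC5 differed by -0.24 in A549 and 0.13 in H1299.

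TOP2A untangles sister chromatids and MKI67, the antigen Ki-67, coats mitotic chromosomes. Both were below shGFP in both A549 libraries, each with a mean log2 difference of -0.18, and both were split in H1299. TOP2A showed the largest difference of any member in H1299 library 1, 0.51, and stood at -0.10 in library 2. MKI67 differed by 0.10 and by -0.0045 there.

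**Figure D2:**
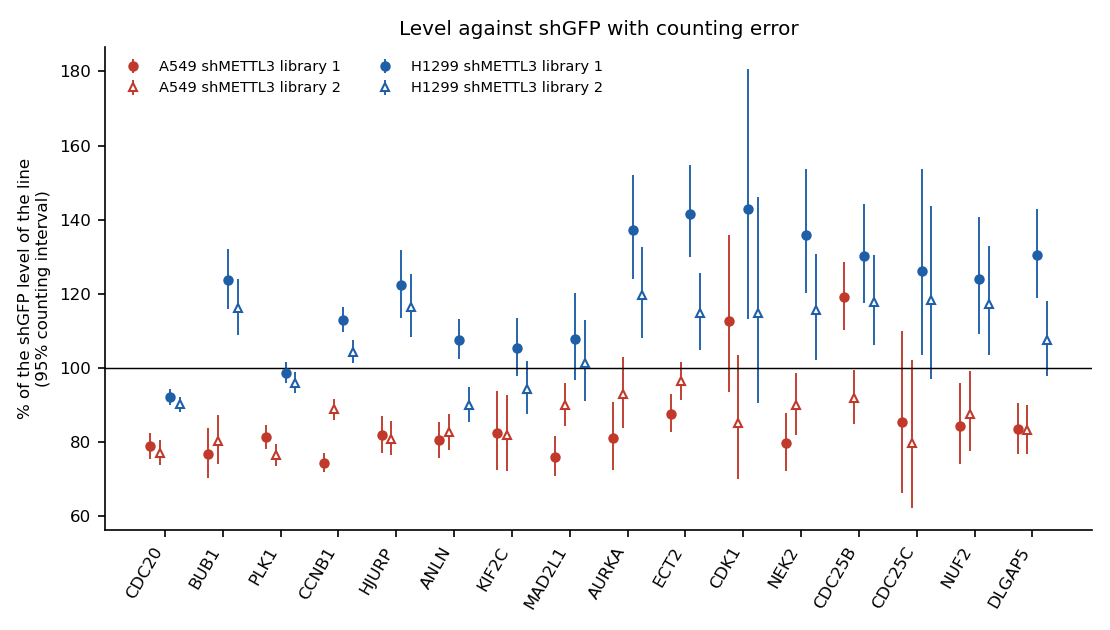
The vertical axis is the level of a gene in a knockdown library as a percentage of the shGFP library of its line, for the 16 genes given in every library (CDC20 to DLGAP5 along the horizontal axis), with 95% counting intervals as bars (red A549, blue H1299; filled circles library 1, open triangles library 2). CDC20 lies under 100% in all 4 libraries, whereas BUB1 and HJURP lie under it in A549 and over it in H1299.

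Counting error alone, taken as the exact 95% Clopper-Pearson interval of a library's ratio to shGFP, separated many of these levels from the control. This compares libraries and covers no spread between cultures. Intervals are narrower for genes with more reads. The shares of all genes below include genes with a mean signal as low as 1. They were not matched to the members in read number, so they are a rough background only. In A549 library 1 the interval lay below 100% for 28 members and above for 1, CDC25B, against 17.5% and 20.1% of all genes. In A549 library 2 it lay below for 34 members and above for 0, against 17.4% and 13.8%. The 6 that were not separated in library 2 were CDK1, CDC25C, AURKA, TTK, CKAP2 and ECT2.

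For H1299 library 1 the interval lay above 100% for 34 members and below for 1, CDC20, against 27.3% and 12.5% of all genes. For H1299 library 2 it lay above for 11 and below for 8, against 13.7% and 22.2%. The 11 above were CCNB1, CDC25B, AURKA, NEK2, BUB1, NUF2, CENPF, HJURP, KIF20A, BIRC5 and ECT2. The 8 below were CCNA2, PLK1, CDC20, NDC80, TPX2, CKAP2L, ANLN and TOP2A. The second H1299 knockdown thus held members on both sides of its control, beyond counting error. On the side below, the members' share was near that of all genes.

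Set side by side, the change in A549 was below the change in H1299 for 40 of 40 members, and for 53.4% of the 15546 genes tested in both lines. The median of the members' difference between the lines, A549 change minus H1299 change, was -0.32 on the log2 scale. This median was -0.20 without H1299 library 1 and -0.48 without H1299 library 2, with 38 and 40 of 40 members below 0. Of all genes, 44.9 and 60.6% were below 0 there. Over single members the difference ran from -0.61 for BUB1 (SE 0.26) to -0.09 for CKAP2 (SE 0.31). After BUB1 the lowest differences were those of NEK2 (-0.56), AURKA (-0.56), HJURP (-0.55), CDC25C (-0.55) and DLGAP5 (-0.50). The test of the difference itself, limma's interaction of line and knockdown, called 0 of 40 members and 0% of genes, and the members' adjusted p rounded to 1 throughout. No member had an unadjusted p under 0.05 in that test, against 0.315% of genes (49).

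By library number, the A549 difference was under the H1299 difference for 40 of 40 members with number 1 (median -0.45) and for 39 of 40 with number 2 (median -0.25), CKAP2 being the exception. For all genes these shares were 58.7 and 45.3%, with medians of -0.08 and 0.03. The control libraries enter both numbers, so the numbers are not separate evidence. Within H1299, library 2 was below library 1 for 39 of 40 members, all but KIF20A, and for 64.9% of all genes, with a median gap of -0.19 for members and -0.13 for all genes. Within A549 library 2 was below library 1 for 28 of 40 members and 52.8% of genes, with medians of -0.04 and -0.03. The gap between the numbers was thus wider for these genes in H1299, but it was also wider there for all genes.

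The side of shGFP that each member took sorts them into 6 patterns. Below in both A549 libraries and above in both H1299 libraries were 19 members, against 6.58% of all genes: CCNB1, CCNB2, CDC25C, AURKA, AURKB, NEK2, BUB1, BUB1B, MAD2L1, NUF2, CENPF, HJURP, KIF20A, KIF20B, KIF23, DLGAP5, GTSE1, BIRC5 and ECT2. A further 14 were below in A549 and on no single side in H1299, against 12.4% of genes. PLK1 and CDC20 were below in all 4 libraries, against 9.05% of genes. CDK1, CDC25B and UBE2C were split in A549 and above in H1299, against 13.2% of genes. CKAP2L was split in both lines, against 21.4%, and CKAP2 was above in A549 and on no single side in H1299, against 11.2%. In these smaller patterns the members' shares were under those of all genes.

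With each library centred on the median of all genes, 27 members were above and 3 below in both H1299 libraries, against 29.3% of all genes on each side. In A549 35 were below and 1 above, against 27.1% on each side. The pattern of opposite sides then held 23 members, against 6.21% of genes. GTSE1 left it, while TTK, CENPA, KIF11, KIF4A and MKI67 joined it. KIF2C joined PLK1 and CDC20 below in all 4 libraries, against 10.8% of genes. CKAP2 then stood above shGFP in all 4, against 9.96% of genes.

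A list of 111 further G2 and mitosis genes, all measured, had 77 below shGFP in both A549 libraries and 2 above, with medians of -0.09 and -0.16 in libraries 1 and 2. In H1299 13 were below (11.7%) and 37 above (33.3%), with medians of 0.19 and -0.04. For all H1299 genes the shares were 24.5% below and 30.6% above, with medians of 0.09 and -0.04. The share above was thus near that of all genes. None of the 111 passed the test in either line (adjusted p of 1 for each gene named here).

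By subgroup, the counts can be read against the 27.2% of all A549 genes that stood below shGFP in both libraries. Of 13 condensin and cohesin genes, which shape and hold the chromatids, 11 were below in both A549 libraries, as were all 7 further checkpoint and passenger genes, 19 of 26 kinetochore genes, 15 of 19 spindle and motor genes and 14 of 17 remaining genes. Of the regulators, a set of transcription factors and CDK1 regulators, 4 of 14 (28.6%) were below, and of the genes of the anaphase-promoting complex and separase pathway 7 of 15 (46.7%). Differences between the subgroups were not tested. UBE2S, which extends ubiquitin chains for that complex, was the lowest of the list in A549 at 2772 in shGFP and 2005 and 1836 in the knockdowns (log2 -0.53, SE 0.20), and was also low in H1299 at 2518, 2323 and 1882 (log2 -0.27, SE 0.20). FAM83D, a spindle positioning protein, stood at 906 in A549 shGFP and at 573 and 763 in the knockdowns (log2 -0.45, SE 0.25). TROAP stood at 75.3 and at 49.3 and 69.1 (log2 -0.36, SE 0.31).

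The 2 genes of the list above shGFP in both A549 libraries were CENPT (log2 0.15, SE 0.20) and RBL2, the p130 subunit of DREAM (log2 0.11, SE 0.19). In H1299 the highest were PIF1, a helicase, at 22.4 in shGFP and 31.8 and 30.2 in the knockdowns (log2 0.45, SE 0.29), CKS1B, a CDK1-binding protein (log2 0.39, SE 0.24), and GAS2L3 (log2 0.37, SE 0.34). The lowest there besides UBE2S were MAD1L1, the partner of MAD2L1 (log2 -0.28, SE 0.23), and SMC1A of cohesin (log2 -0.26, SE 0.24).

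S phase genes gave a different picture in H1299 and a similar one in A549. Of 50 replication and S phase genes, 37 were below shGFP in both A549 libraries and 2 above, with medians of -0.23 and -0.15. In H1299 22 were below and 7 above, with medians of 0.01 and -0.13, where the members had 2 below and 22 above. Among all genes 27.2% were below and 27.2% above in A549, and 24.5% below and 30.6% above in H1299. The S phase genes lowest in A549 were CDC45 (log2 -0.52, SE 0.22), TIPIN (log2 -0.47, SE 0.23) and CDC6 (log2 -0.39, SE 0.19). In H1299 they were RRM2 (log2 -0.34, SE 0.20), MCM6 (log2 -0.25, SE 0.18) and CDC6 (log2 -0.24, SE 0.22). Whether the members differ from the S phase genes as a set was not tested.

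**Figure D3:**
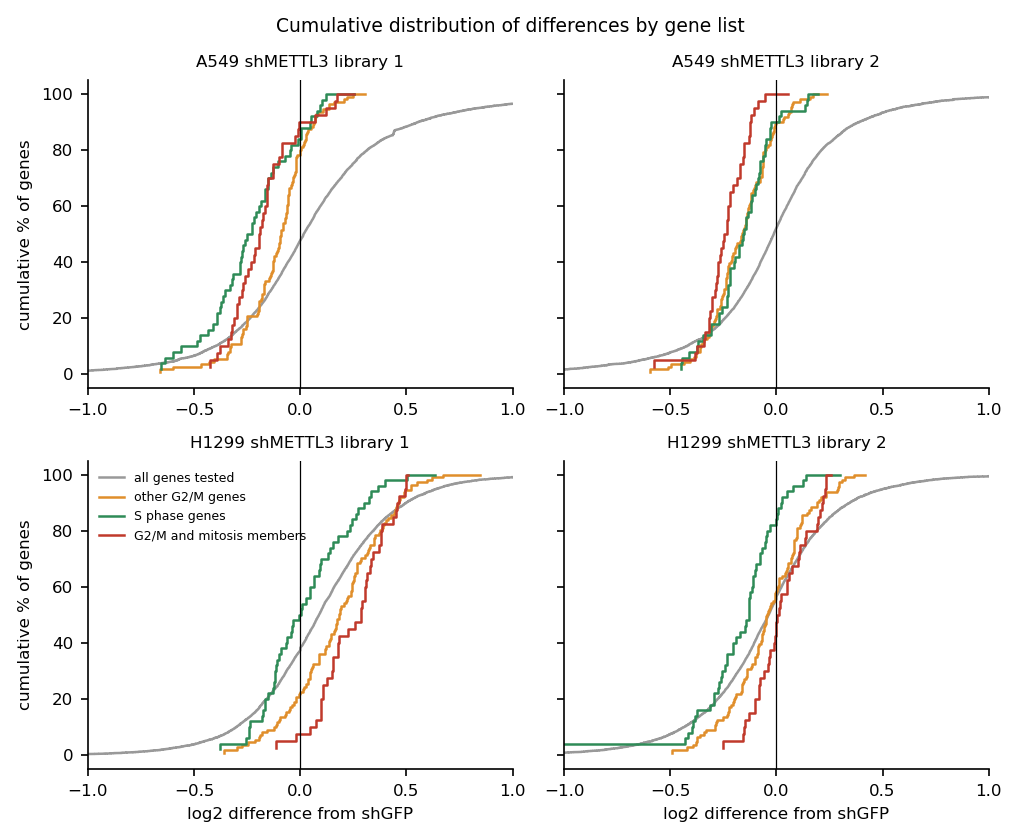
Each panel is 1 knockdown library, with the log2 difference from the shGFP library of its line on the horizontal axis and the cumulative percentage of genes on the vertical axis, for the 40 members (red), 111 other G2 and mitosis genes (orange), 50 S phase genes (green) and all genes tested (grey). The member curve lies left of the grey curve over most of its height in both A549 panels and right of it in H1299 library 1, where the member median is 0.29 against 0.09.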

How the data were processed

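RNA-seq of 6 libraries was used; the m6A peak lists and the input samples were not used here. Libraries were made from poly(A) RNA with a stranded TruSeq kit, per the labels' protocols. TopHat, Bowtie and hg19 are named, without versions, in the submitters' processing notes, while for the counter, the annotation, the strand setting and the basis of the scaling a tool or method is not given in the sources used here. Each deposited table holds a signal per gene: whole reads over a factor that the authors applied to each library (100% of values fitted this within rounding). Headings of the A549 knockdown columns read shMEL with a number, by which they were assigned. Depth is given in the report, and counting intervals cover counting error only. Each line was scaled on its own, so levels were not compared between lines.

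Differences are of log2(signal + 1), which understates changes of low genes, for genes with a mean of at least 1. limma 3.58.1 in R 4.3.3 (eBayes with an intensity trend, two-sided, Benjamini-Hochberg over all genes, threshold 0.05) compared shMETTL3 with shGFP per line, over both lines, and between lines by an interaction. With 1 shGFP library per line, that library is assumed to vary like the knockdowns. The A549 reads were also tested with edgeR 4.0.16. H1299 values carry 1 decimal, against 2 in A549, and did not pass the check for recovered reads. No count test was therefore run in H1299, and its read numbers, counting intervals and TMM scaling are less certain. Names turned into dates (27 and 25) or repeated (2 and 1) were left out of comparisons across lines. Scripts were tested on simulated data.

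Members and lists were chosen with earlier results of these data known. Values in every library are given for METTL3, for the 8 members with the largest mean change per line among those on 1 side of shGFP, and for the 6 with the largest difference between lines. Of the other lists, the 3 with the largest mean change per direction and line are named, or fewer where a direction had fewer; for S phase genes only the lowest are named. CKAP2 was given in every library after its values were seen. The promoters are those of the 4 lowest members in A549. Alternatives were median centring, TMM scaling, a pseudocount of 0.1, a stricter minimum mean (5), no minimum, no trend, all 6 libraries in a fit, a replicate block, edgeR, differences of at least 0.1 only, and leaving out each knockdown library.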

Additional observations from a re-analysis of the deposited data

Results flagged for a closer look

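Members whose knockdown libraries all lay below shGFP in A549 and all above it in H1299 were picked out because the lines went opposite ways; the difference between the lines was tested by limma's interaction and none passed it (adjusted p rounded to 1 for each of the 19). The differences below are A549 change minus H1299 change on the log2 scale. Among the genes of mitotic entry they were -0.42 for CCNB1, -0.41 for CCNB2 and -0.55 for CDC25C. Among the kinases they were -0.56 for AURKA, -0.30 for AURKB and -0.56 for NEK2. Checkpoint genes gave -0.61 for BUB1, -0.24 for BUB1B and -0.34 for MAD2L1. Kinetochore genes gave -0.48 for NUF2, -0.32 for CENPF and -0.55 for HJURP. The midzone motors gave -0.27 for KIF20A, -0.41 for KIF20B and -0.28 for KIF23. The spindle and cytokinesis genes gave -0.50 for DLGAP5, -0.18 for GTSE1, -0.38 for BIRC5 and -0.47 for ECT2. BUB1B, GTSE1, CCNB2 and MAD2L1 differed from shGFP by 0.0016, 0.01, 0.01 and 0.02 in H1299 library 2, so their side there rests on a very small difference. Counting intervals in that library included 100% for these genes and also for CDC25C, AURKB, KIF20B, KIF23 and DLGAP5.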

How the results depend on the processing

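No member was called under any alternative run. Counting only differences of at least 0.1, members below shGFP in both A549 libraries went from 35 to 27, and members above from 1 to 0. In H1299 members below went from 2 to 1, and members above from 22 to 14. Leaving out a knockdown library in turn gave 35 to 39 members below and 1 to 5 above in A549. In H1299 it gave 2 to 17 below and 22 to 38 above. Shares of all genes were not computed for these counts. The median difference between the lines ran from -0.48 to -0.20 when a knockdown library was left out. The members below 0 in it were 38 to 40, against 44.9 to 60.6% of all genes. With the numbers 1 and 2 as a replicate block, 1 gene was called over both lines, METTL3 (log2 -1.27, SE 0.11, limma adjusted p = 0.0173), against 0 without it, and 0 in the test between lines; it changed no other call. What a number shares between lines is not stated in the labels; number 1 minus number 2 correlated between the lines with r = 0.24 across 15546 genes. Of the members' medians, 1 of 41 alternative values changed sign: over both lines the median was -0.03, and 0.01 without A549 library 2. None of the 237 alternative values of single named genes changed sign. Besides METTL3, these genes were picked for large changes, and within a line only among members on 1 side of shGFP in both libraries. Leaving out a library of that line could therefore not change their sign, so this count is no measure of stability. Members split between libraries, such as CDK1 in A549 (0.17 and -0.23), were not among these values for that line. In A549 the count of members below shGFP was 35 under median centring and TMM scaling, against 27.1 and 27.3% of all genes. In H1299 the count above was 27 and 28 under them, against 29.3 and 29.8% of all genes. edgeR was run for A549 only and not for H1299 or across lines. With 1 control library per line, the spread between control cultures is unknown, and members with few reads (CDK1, CDC25C) have wide counting intervals.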
